A study of Mus musculus with 16 samples.

Results

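The 10 genes described here encode RNA-binding proteins that set how long cytokine mRNAs last. They were Zfp36, Zfp36l1, Zfp36l2, Zc3h12a, Zc3h12c, Zc3h12d, Rc3h1, Rc3h2, Elavl1 and Khsrp. They were chosen by name, and their rows were found through the mouse Ensembl identifiers among the 39179 genes counted in each sample. RNA-seq was performed on bone marrow-derived mast cells (BMMCs), grown for 4 weeks from the marrow of male C57BL/6 mice aged 8 to 10 weeks. PEP+/+ cells were wild type. PEP-/- cells were mutant for PEP, the phosphatase encoded by Ptpn22. All 16 samples received IgE for 3 h, so no group was free of IgE. The labels give its dose as 0.05 µg/ml, and the study's methods state a higher one. In each genotype, IgE alone was compared with IgE DNP (the antigen, 200 ng/ml for 1 h), IgE DEX (dexamethasone, 100 nM for 8 h) and IgE DNP DEX, with 2 samples per group. The labels call the samples biological replicates without saying how many mice were used, so p-values measure the spread between these samples.

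AU-rich elements in the 3′ untranslated region (3′UTR) mark many cytokine mRNAs for rapid decay. Zfp36 (tristetraprolin), Zfp36l1 and Zfp36l2 bind such elements through CCCH zinc fingers and recruit the deadenylase complex CCR4-NOT, and Khsrp (KSRP) also promotes decay of AU-rich mRNAs. Elavl1 (HuR) binds similar elements and is best known for stabilising its targets. Zc3h12a (Regnase-1) and its relatives Zc3h12c and Zc3h12d are CCCH proteins with an endonuclease domain, and Zc3h12a cleaves mRNAs at stem-loops. Rc3h1 (Roquin-1) and Rc3h2 (Roquin-2) bind stem-loops as well and bring in CCR4-NOT. In mast cells, cross-linking of the IgE receptor by antigen induces cytokine mRNAs within minutes to hours, and glucocorticoids such as dexamethasone lower many of them. Several of these factors are known to act on their own mRNAs too.

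AU-rich motifs were also counted in the mRNAs of the decay factors themselves. In GENCODE M21 models on GRCm38, written in DNA letters, the pentamer ATTTA was present in the 3′UTR of 10 of the 10 mRNAs, and the longer TATTTAT, the core recognised by Zfp36 proteins, in 7. Over 11463 tested genes with a 3′UTR model, 66.7% held the pentamer and 27.8% the heptamer. The 30-base windows below show the heptamer in capitals, in the 7 members that carry it and in the cytokine mRNA Tnf for comparison, so that the letters can be set beside the responses given later.
Zfp36 (chr7:28376958-28376987, minus strand): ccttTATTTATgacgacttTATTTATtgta
Zfp36l2 (chr17:84184914-84184943, minus strand): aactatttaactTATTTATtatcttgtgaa
Zfp36l1 (chr12:80108167-80108196, minus strand): aaactgttggatTATTTATtttagaaattc
Zc3h12c (chr9:52114862-52114891, minus strand): tgctataatcatTATTTATaggaacaaaga
Rc3h1 (chr1:160970042-160970071, plus strand): tactttactcatTATTTATtgagatgagga
Rc3h2 (chr2:37373287-37373316, minus strand): acaaagacatttTATTTATtttactctgta
Elavl1 (chr8:4285777-4285806, minus strand): tTATTTATTTATTTATTTATtttTATTTAT
Tnf (chr17:35199678-35199707, minus strand): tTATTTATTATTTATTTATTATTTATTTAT

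Heptamers overlapped each other in Elavl1 and Tnf and stood apart in the other windows. Zfp36 had 3 heptamers in only 774 bases of 3′UTR. Among 1514 tested genes with a 3′UTR of similar length (a ratio of shorter to longer of at least 0.8), 0.793% had as many. Elavl1 had 8 heptamers in 4218 bases, as did Tnf in 764 bases, and 0.115% of the 872 genes closest to Elavl1 in length had as many. Zfp36l1, Zfp36l2 and Rc3h2 had 3 each, and Zc3h12c and Rc3h1 had 2 each. For the long 3′UTRs of Rc3h1 and Zc3h12c this was common, at 46.8% and 28.7% of genes of similar length. Zc3h12a, Zc3h12d and Khsrp had none. A match of letters is a description and does not show that a protein binds there.

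**Figure D1:**
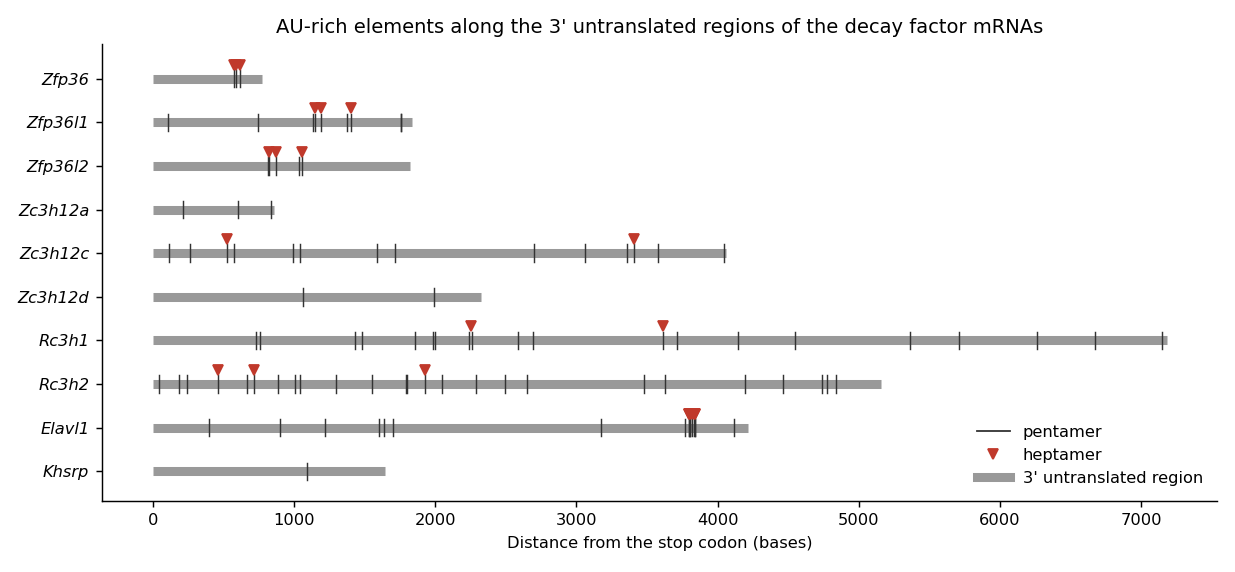
Positions of AU-rich elements along the 3′ untranslated region of each decay factor mRNA (GENCODE M21), as distance from the stop codon in bases on a linear axis. Ticks mark the pentamer ATTTA and triangles the heptamer TATTTAT; the 8 heptamers of Elavl1 sit in 1 cluster near the end, the 3 of Zfp36 sit close together, and Zc3h12a, Zc3h12d and Khsrp have none.

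Promoters were read from RefSeq (GRCm38) as 250 bases before and 50 after the start site, for 9 of the 10 genes. They were searched on both strands for 7 motifs of factors known to act downstream of the IgE receptor or of dexamethasone. The stretches below, from members whose mRNA rose after antigen, are shown because each holds a match, in capitals.
Zfp36 (chr7:28379267-28379296, minus strand), CArG box: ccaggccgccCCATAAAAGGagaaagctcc
Zfp36 (chr7:28379315-28379344, minus strand), EGR motif: cgagctacgccGCGGGGGCGcgtcccggaa
Rc3h1 (chr1:160906266-160906295, plus strand), AP-1 motif: cgttggggccggTGACTCAgagctttcctc
Zc3h12c (chr9:52168623-52168652, minus strand), NF-kB consensus: gcggcatgggGGAGCGTCCCgctcggcccg

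Both Zfp36 stretches lie in an exon of a longer annotated Zfp36 transcript, upstream of the RefSeq start. The other 2 stretches lie outside annotated genes. The CArG box was found in 1.63% of 32851 promoters, the EGR motif (GCGNGGGCG) in 5.55%, the AP-1 motif (TGANTCA) in 7.81% and the NF-kB consensus in 8.46%. The AP-1 motif was also found in Zfp36l1. None of the 7 motifs was found in the window of Zc3h12a. The cyclic AMP response element TGACGTCA (1.79% of promoters) and the full glucocorticoid palindrome (0.00913%) were found in no member. The hexamer AGAACA, a part of the glucocorticoid response element (19% of promoters), was found among the members only at the start of a shorter Zc3h12c transcript. These matches are letters in short windows, and binding was not measured.

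Libraries held between 8612531 and 22143526 counts on genes, and 13305 genes had enough counts to be tested. Ptpn22 was read at 11.3 to 175 CPM, which are counts scaled to a common library size in the 8 PEP+/+ libraries and at 0 to 3.03 CPM in the 8 PEP-/- libraries. Tsc22d3 and Fkbp5, glucocorticoid-induced genes, were higher in every DEX library than in every library without DEX (Tsc22d3 at least 725 CPM against at most 135). The 10 mast cell markers, led by Cpa3, summed to between 63200 and 103700 CPM. Of the markers of other cell types, 5 for neutrophils summed to at most 2.35 CPM, 3 for dendritic cells to at most 2.48 CPM and 2 for basophils to between 19.8 and 122 CPM. Cd3e, a T cell marker, was at 0 in all samples. The 5 erythroid and megakaryocyte markers summed to between 1939 and 3921 CPM, nearly all of it Itga2b, an integrin that mast cells also express. Among them Hba-a1, a haemoglobin gene, was at 0.0550 to 6.12 CPM. It rose with DEX by 3.65 on the log2 scale in resting and by 4.33 in activated cells (edgeR, adjusted p = 0.00852 and 0.00347). At such levels Hba-a1 may have passed the filter on low counts only through its DEX samples, so these values are a description. The sum of 5 macrophage markers, with Cd68 the most abundant, lay between 17.6 and 38.4 CPM in wild type libraries. PEP-/- libraries had sums of 29.7 to 55.4 CPM, and the highest value of each genotype was in IgE DNP DEX, while Mrc1 was at most 0.0625 CPM. The part of these markers in the results, Hba-a1 in the DEX responses included, was not tested. In bulk RNA, a lower share of cells and less RNA per cell cannot be told apart.

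The labels number 1 sample of each group from 1 to 8 and letter the other from A to H. Samples of the same set deviated together in all 12 pairs of groups compared (r = 0.453 to 0.799 across genes, which are not independent). Reads outside annotated genes were 4.69 to 7.18% of the numbered and 8.35 to 11% of the lettered libraries. Reads with several alignments were 21.5 to 25.6% in IgE and 30.3 to 37.8% in IgE DNP DEX. Their part in the results was not tested. The tests were made without a term for the set, and values or counts with that term (the replicate block) are given where it changes a call of a member or moves a list's count by over 1.5 times. PEP+/+ IgE DNP DEX replicate 1 was the shallowest library. It had 25.1 CPM of Rc3h2 against 40.3 to 59.3 CPM in the other 15 samples.

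Resting levels differed widely between the members. Per kilobase of exon, Zfp36l2 was the most abundant, at 74.1 ± 8.43 CPM per kb in IgE samples (SD, n = 4 over both genotypes). Khsrp followed at 24.0 ± 0.544 CPM per kb. Elavl1 (6.79 CPM per kb), Zfp36l1 (5.43), Rc3h1 (5.39) and Zc3h12a (5.07) came next, and each overlapped its neighbour in this order. Rc3h2 (2.28), Zc3h12c (1.64) and Zfp36 (0.776) overlapped in the same way. Zc3h12d was at the edge of detection, at 0.0262 CPM per kb, with 0 to 2 counts in each IgE library. Its 0 counts in PEP-/- IgE replicate 2 allow up to 0.154 CPM, a limit of 3 counts that covers counting error only. All 10 members passed the filter on low counts, but Zc3h12d did so only through its higher samples, which had up to 21 counts. With the length of the main transcript in place of all exons, Elavl1 became 12.3 and Rc3h2 5.08 CPM per kb, the latter then next to Zc3h12a at 5.30, so these levels depend on the gene model.

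**Figure D2:**
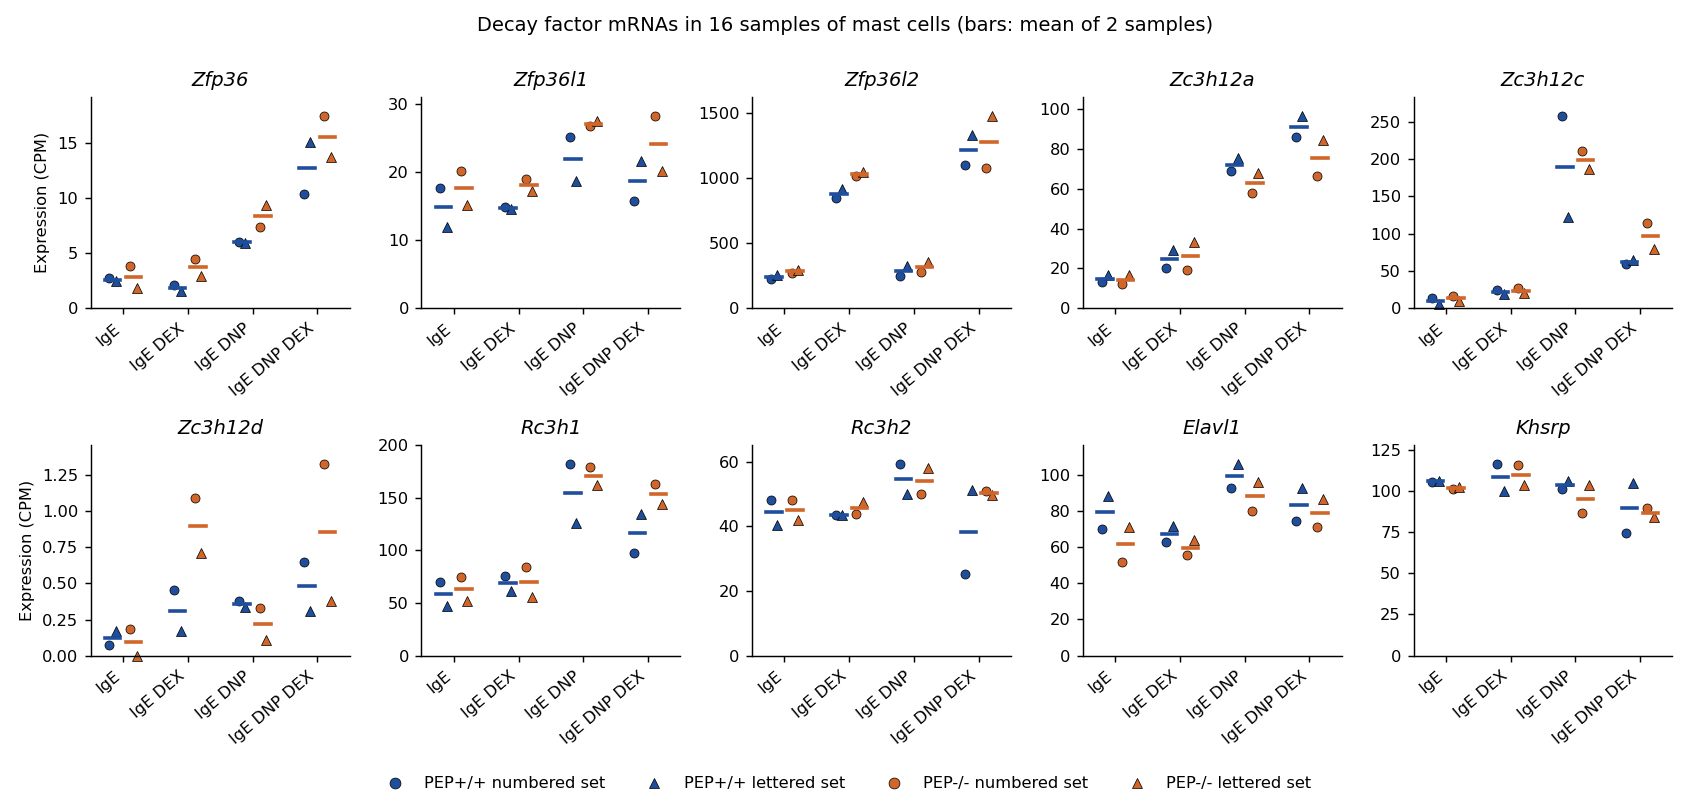
Expression of each decay factor mRNA in CPM (linear axis from 0) in the 4 treatments, with 1 point per sample, circles for the numbered and triangles for the lettered set, blue for PEP+/+ and orange for PEP-/-, and a bar at the mean of 2 samples. Zc3h12c is highest in IgE DNP, Zfp36 in IgE DNP DEX, and Zfp36l2 in both DEX treatments, in both genotypes.

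Antigen raised 4 of the 10 mRNAs in cells without DEX, averaged over both genotypes: Zc3h12c, Zc3h12a, Rc3h1 and Zfp36. None fell. Over all genes tested, 9.07% were higher and 7.58% lower. The median log2 fold change was 1.00 over the 10 members and -0.0007 over all genes tested. This median counts Zc3h12d (log2 1.46), which passed the filter on low counts only through its higher samples. Without Zc3h12d, the middle member is Zfp36l1, at 0.59. In the fit with the replicate block, Zfp36l1 and Elavl1 were also higher, which made 6 of 10 (37.9% of all genes in either direction).

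Zc3h12c showed the largest change. In PEP+/+ cells it was read at 13.2 and 5.47 CPM with IgE and at 257 and 122 CPM with IgE DNP. In PEP-/- cells it was 16.5 and 9.82 CPM with IgE and 211 and 186 CPM with IgE DNP. The 4 activated samples all lay far above the 4 resting ones, and the lettered sample was the lower one in each of these 4 groups. The log2 fold change was 4.13 (SE 0.34, edgeR's quasi-likelihood test, adjusted p = 1.15e-05), a 17.5-fold rise. Within each set and genotype, the differences ran from 3.67 to 4.45 on the log2 scale.

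Zc3h12a, the family member whose protein is cleaved by MALT1 and phosphorylated by IKK in activated cells, also rose. It was 13 and 16.7 CPM in PEP+/+ IgE, and 68.9 and 75.3 CPM in PEP+/+ IgE DNP. In PEP-/- cells it went from 12.0 and 16.7 CPM to 57.8 and 68.1 CPM. The spread was small and the groups did not overlap. Its log2 fold change was 2.20 (SE 0.21, adjusted p = 3.78e-05), or 4.61-fold. The related Zc3h12d was 0.107 ± 0.0869 CPM with IgE and 0.289 ± 0.121 CPM with IgE DNP (SD, n = 4), and did not pass the test (adjusted p = 0.322).

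Rc3h1 rose from 69.9 and 47.6 CPM to 182 and 126 CPM in PEP+/+ cells. In PEP-/- cells the values were 74.4 and 51.7 CPM with IgE and 179 and 163 CPM with IgE DNP. All activated samples lay above all resting samples, with a log2 fold change of 1.42 (SE 0.21, adjusted p = 8.30e-04). Its paralog Rc3h2 was 40.3 to 48.3 CPM with IgE and 49.8 to 59.3 CPM with IgE DNP. These ranges did not overlap, but the log2 fold change of 0.28 did not pass the test (95% interval -0.14 to 0.70, adjusted p = 0.41). The difference between the paralogs was not tested.

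Zfp36 was scarce at rest and rose as well. It was 2.72 and 2.43 CPM in PEP+/+ IgE and 6.05 and 5.96 CPM in PEP+/+ IgE DNP. The PEP-/- values were 3.82 and 1.80 CPM, then 7.38 and 9.41 CPM. These values rest on 28 to 171 counts per library, and the groups did not overlap. The log2 fold change was 1.41 (SE 0.27, adjusted p = 0.0039). Of its relatives, Zfp36l1 was 12.0 to 20.1 CPM with IgE and 18.7 to 27.4 CPM with IgE DNP, with a log2 fold change of 0.59 and an adjusted p of 0.0551 (0.00529 with the replicate block, 0.0424 without PEP+/+ IgE replicate 1). An annotated RNA on the opposite strand, Gm26669, covers 55.9% of the exon bases of Zfp36l1. Whether the counting used strand is not stated in the sources used here. If it did not, reads that overlap both genes would be in neither count, and Zfp36l1 would be read too low. Zfp36l2 differed by 0.20 on the log2 scale (95% interval -0.13 to 0.54).

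The differences of the other AU-rich binding proteins were small. Elavl1 was 52.0 to 88.2 CPM with IgE and 80.2 to 106 CPM with IgE DNP, and its log2 fold change of 0.42 passed the test only with the replicate block (adjusted p = 0.0915 without it, 7.10e-04 with it). Khsrp was 101 to 106 CPM with IgE and 86.8 to 106 CPM with IgE DNP, and its log2 difference of -0.07 had a 95% interval of -0.35 to 0.22.

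Under DEX, antigen raised the same 4 genes: Zfp36, Zc3h12c, Zc3h12a and Rc3h1. Over all genes, 7.19% were higher and 5.42% lower. Zfp36 now had the largest log2 fold change of the members. It was 2.09 and 1.6 CPM in PEP+/+ IgE DEX and 10.4 and 15.1 CPM in PEP+/+ IgE DNP DEX. In PEP-/- cells it was 4.46 and 2.95 CPM, then 17.4 and 13.7 CPM. Every sample with both agents was above every sample of the other 3 treatments, and the log2 fold change was 2.43 (SE 0.27, adjusted p = 1.69e-04), or 5.38-fold.

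Zc3h12c rose under DEX too, from 24.6 and 19.5 CPM to 58.9 and 64.2 CPM in PEP+/+ cells and from 26.5 and 19.7 CPM to 114 and 78.7 CPM in PEP-/- cells. Its log2 fold change was 1.77 (SE 0.31, adjusted p = 0.00335), or 3.41-fold. Zc3h12a rose by 1.71 (SE 0.21, adjusted p = 3.14e-04) and Rc3h1 by 0.94 (SE 0.21, adjusted p = 0.0131) on the log2 scale. The call of Rc3h1 was lost without PEP+/+ IgE DEX replicate 2 (log2 0.87, adjusted p = 0.0678) or PEP-/- IgE DEX replicate 2 (log2 0.80, adjusted p = 0.0625). The replicate block gave 8 called members (37.6% of all genes), with Zfp36l1, Zfp36l2 and Elavl1 also higher by 0.35 to 0.40 and Khsrp lower by 0.31 on the log2 scale. Their adjusted p-values with the block were 0.0492, 0.00766, 0.00379 and 0.0424. Khsrp was also called without PEP+/+ IgE DNP DEX replicate 2 (log2 -0.42, adjusted p = 0.0410).

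**Figure D3:**
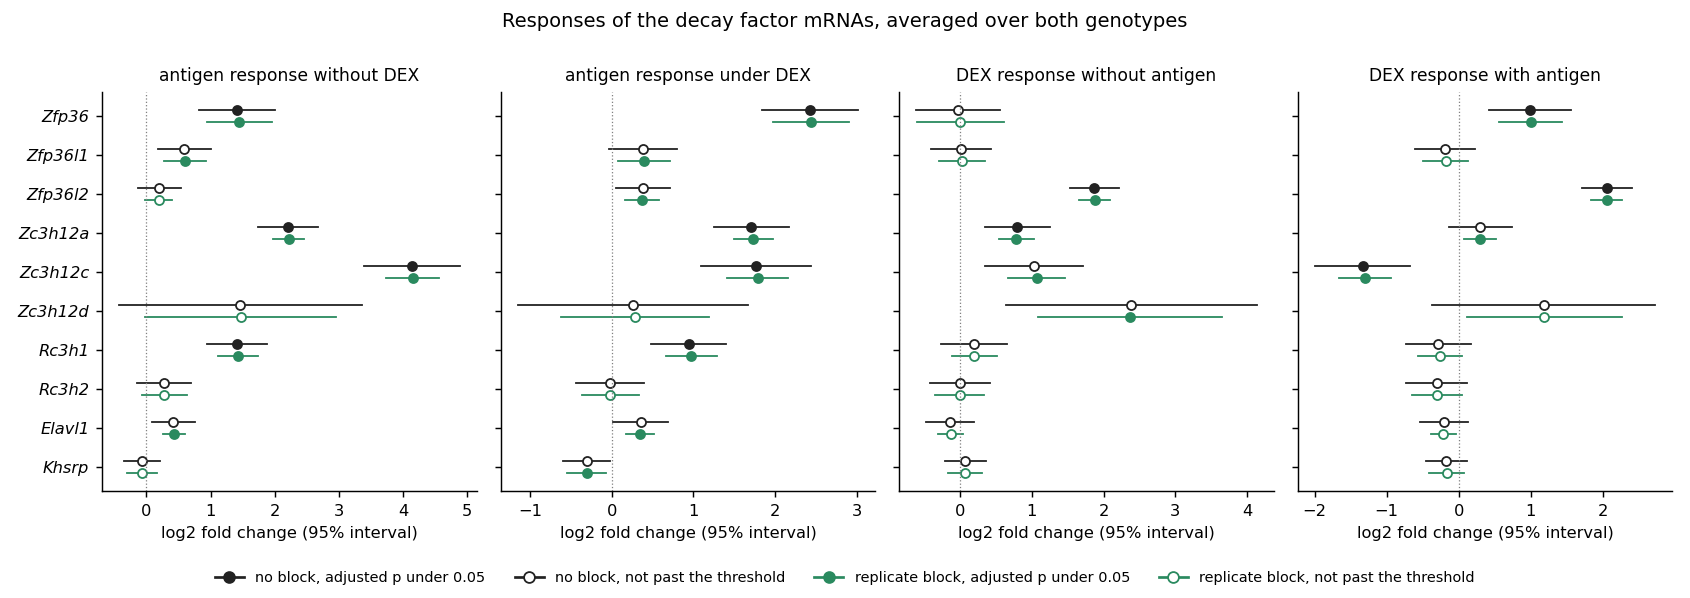
log2 fold changes with 95% intervals of the 10 mRNAs in the 4 responses, averaged over PEP+/+ and PEP-/- cells (edgeR; black without and green with the replicate block; filled points have an adjusted p under 0.05). Zfp36l2 responds to DEX but hardly to antigen, Zc3h12c rises by 4.13 after antigen and falls by 1.33 when DEX is added to antigen, and Zc3h12d has the widest intervals.

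DEX raised Zfp36l2 in resting and in activated cells. Zfp36l2 was 226 and 251 CPM in PEP+/+ IgE and 847 and 914 CPM in PEP+/+ IgE DEX. The PEP-/- values were 274 and 296 CPM without and 1018 and 1046 CPM with DEX. The lowest DEX sample was well above the highest IgE sample. The log2 fold change was 1.87 (SE 0.16, adjusted p = 2.03e-05), or 3.66-fold. Within sets and genotypes it ran from 1.82 to 1.90.

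In activated cells the rise of Zfp36l2 was of similar size. It was 250 and 322 CPM in PEP+/+ IgE DNP and 1099 and 1335 CPM in PEP+/+ IgE DNP DEX. The PEP-/- values were 276 and 355 CPM, then 1075 and 1476 CPM. It rose by 2.05 on the log2 scale (SE 0.16, adjusted p = 1.11e-05), or 4.15-fold, and the interaction of antigen and DEX was 0.18 with a 95% interval of -0.29 to 0.66. Already the most abundant member at rest, Zfp36l2 reached 353 ± 54.7 CPM per kb with both agents (SD, n = 4).

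In resting cells, DEX raised 2 of the 10 members, Zfp36l2 and Zc3h12a, against 5.40% higher and 3.98% lower over all genes. Zc3h12a was 20.3 and 29.0 CPM in PEP+/+ IgE DEX and 19.2 and 33.2 CPM in PEP-/- IgE DEX. All 4 were above the highest IgE sample, at 16.7 CPM, and the log2 fold change was 0.79 (SE 0.21, adjusted p = 0.0326). The call was close to the threshold. It was lost in 11 of 16 fits that each left out 1 library (adjusted p 0.0506 to 0.126), with log2 fold changes of 0.58 to 0.97 over the 16. Among the libraries compared, these were both replicates of PEP+/+ IgE, replicate 1 of PEP-/- IgE, and replicate 2 of PEP+/+ IgE DEX and of PEP-/- IgE DEX. The others were both replicates of PEP+/+ IgE DNP, PEP+/+ IgE DNP DEX and PEP-/- IgE DNP. Zc3h12c was higher as well, with IgE DEX samples at 19.5 to 26.5 CPM against 5.47 to 16.5 CPM, and passed the test only with the replicate block (log2 1.03, adjusted p = 0.0631 without it, 5.80e-04 with it). Zc3h12d was 0.606 ± 0.391 CPM with DEX against 0.107 ± 0.0869 CPM without (SD, n = 4), on 4 to 21 and 0 to 2 counts. It passed the filter on low counts only through such higher samples, so these values are a description. The call of Zc3h12c was also gained without PEP+/+ IgE replicate 1 (log2 1.42, adjusted p = 0.0239) or either PEP+/+ IgE DNP replicate (adjusted p = 0.0421 and 0.0415). Leaving Zc3h12d aside, the block called 3 of the other 9 members, Zfp36l2, Zc3h12a and Zc3h12c (26.7% of all genes). Zfp36 did not differ beyond the spread (log2 -0.03, 95% interval -0.61 to 0.56).

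In activated cells, DEX raised Zfp36l2 and Zfp36 and lowered Zc3h12c. Over all genes, 5.67% were higher and 4.99% lower. Zfp36 was 5.96 to 9.41 CPM in the 4 IgE DNP samples and 10.4 to 17.4 CPM in the 4 IgE DNP DEX samples. It rose by 0.99 on the log2 scale (SE 0.26, adjusted p = 0.0306). Without any 1 of 6 IgE DNP or IgE DNP DEX libraries, its adjusted p rose to between 0.0624 and 0.105. These were both replicates of PEP+/+ IgE DNP (0.0837 and 0.0745) and of PEP-/- IgE DNP (0.105 and 0.0624), PEP+/+ IgE DNP DEX replicate 2 (0.0866) and PEP-/- IgE DNP DEX replicate 1 (0.0907).

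Zc3h12c fell from 122 to 257 CPM in the 4 IgE DNP samples to 58.9 to 114 CPM in the 4 IgE DNP DEX samples. The groups did not overlap, although PEP+/+ IgE DNP replicate 2 and PEP-/- IgE DNP DEX replicate 1 lay close to each other. The log2 fold change was -1.33 (SE 0.30, adjusted p = 0.0163). The call was lost without PEP+/+ IgE DNP replicate 1 (log2 -0.998, adjusted p = 0.0676), PEP+/+ IgE DNP DEX replicate 1 (log2 -1.28, adjusted p = 0.0684), PEP-/- IgE DNP replicate 1 (log2 -1.27, adjusted p = 0.0521) or PEP-/- IgE DNP DEX replicate 2 (log2 -1.20, adjusted p = 0.0698). With the replicate block it was -1.30 (adjusted p = 4.11e-05). Zc3h12a, by contrast, was 57.8 to 75.3 CPM with IgE DNP and 66.6 to 96.5 CPM with IgE DNP DEX, with a log2 fold change of 0.30 (adjusted p = 0.42 without and 0.0418 with the block). Rc3h2 was 25.1 to 51.2 CPM with both agents and was called only without PEP+/+ IgE DNP DEX replicate 2 (log2 -0.60, adjusted p = 0.0238). The block gave 4 called members (33.3% of all genes).

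Every Zc3h12c value with either agent alone lay above the IgE values, and the values with both agents lay between those with DEX and those with antigen. The interaction of antigen and DEX tests whether the antigen response differs with DEX. For Zc3h12c it was -2.36 on the log2 scale (95% interval -3.31 to -1.42), a 5.15-fold smaller rise under DEX. Its adjusted p was 0.0512 without and 1.45e-04 with the replicate block. No member passed without the block (0.331% of all genes did) and Zc3h12c alone did with it (1.57%). DESeq2 also called it (adjusted p = 6.19e-05). By edgeR without the block, 2 of the 10 members and 485 of the 13305 genes had an unadjusted p under 0.05. For Zfp36 the interaction pointed the other way, at 1.02 (95% interval 0.20 to 1.83), and did not pass (adjusted p = 0.995 without and 0.189 with the block).

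The 4 responses were also fitted in each genotype. Antigen without DEX raised 3 members in PEP+/+ cells (5.90% of all genes called in either direction) and 4 in PEP-/- cells (7.22%). The member not called in PEP+/+ cells was Zfp36 (adjusted p = 0.0992), which the replicate block called there too (adjusted p = 0.0205). The block called 4 members in PEP+/+ (21.1% of all genes) and 6 in PEP-/- cells (26.2%), the latter with Zfp36l1 and Elavl1 (adjusted p = 0.0348 and 0.00358). Antigen under DEX raised Zfp36 and Zc3h12a in both genotypes, and Zc3h12c past the threshold in PEP-/- cells, so 2 members were called in PEP+/+ (3.84%) and 3 in PEP-/- cells (3.98%). With the block, Zc3h12c and Rc3h1 were called in both genotypes (Zc3h12c in PEP+/+ cells at an adjusted p of 6.00e-04), and 5 members each in PEP+/+ (22.3% of all genes) and PEP-/- cells (19.7%). The remaining called member was Zfp36l2 in PEP+/+ (adjusted p = 0.0280) and Elavl1 in PEP-/- cells (adjusted p = 0.0261). DEX changed 1 member past the threshold in each genotype, Zfp36l2, both without antigen (3.18% in PEP+/+ and 3.34% in PEP-/-) and with it (3.03% and 3.28%). The block added Zc3h12a and Zc3h12c in both genotypes without antigen (15.6% of all genes in PEP+/+ and 14.7% in PEP-/- cells), with adjusted p-values of 0.00625 and 0.00407 in PEP+/+ and 0.00244 and 0.0432 in PEP-/- cells. In PEP-/- cells it also called Zc3h12d (adjusted p = 0.00842). That gene passed the filter on low counts only through its higher samples, so this call is a description. With antigen the block added a rise of Zfp36 and a fall of Zc3h12c in both genotypes (18.9% and 18.1%), with adjusted p-values of 0.0172 and 5.44e-04 in PEP+/+ and 0.0431 and 0.00543 in PEP-/- cells. Zc3h12c rose 20.3-fold after antigen in PEP+/+ and 15.2-fold in PEP-/- cells without DEX, and Zfp36l2 rose 3.69-fold and 3.62-fold with DEX.

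The difference between genotypes was also tested itself. It passed for no member and for no gene (0% for each of the 4 responses by edgeR, 0 genes by DESeq2). Without adjustment, 30 to 95 of the 13305 genes and none of the members had p under 0.05. The intervals were wide: over the 9 members other than Zc3h12d, the difference in the antigen response without DEX between genotypes had 95% bounds as far as -1.75 and 1.55 on the log2 scale, so smaller differences were not detectable for the most variable members. For Zfp36l2, the best counted member, the bounds were -0.69 and 0.64 for the DEX response without antigen.

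Averaged over the treatments, no member differed in level between PEP-/- and PEP+/+ cells (1.59% of all genes did). Without adjustment, 2 of the 10 members and 1884 of the 13305 genes had p under 0.05 by edgeR. The log2 differences, PEP-/- minus PEP+/+, ran from -0.20 for Elavl1 to 0.47 for Zfp36. With the replicate block, Elavl1 was called, at -0.20 (adjusted p = 0.0268, 17.4% of all genes). Elavl1 was lower in PEP-/- than in PEP+/+ cells in all 8 comparisons within a set and treatment. These include 52.0 against 70.0 CPM in numbered IgE samples and 86.3 against 92.4 CPM in lettered IgE DNP DEX samples. The treatments of a set and genotype deviated together, so these comparisons may not be independent. Within single treatments, the genotype difference of Elavl1 passed in none with the block (edgeR, adjusted p 0.146 to 0.797).

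Genes that work with the decay factors were read from lists. Among 15 tested relatives and other RNA-binding proteins, N4bp1, an endonuclease related to the Regnases, was the only gene called without the replicate block, and it rose in each response. With the block, 6 and 5 of the 15 were called for antigen without and under DEX (37.9% and 37.6% of all genes) and 5 and 3 for DEX in resting and activated cells (26.7% and 33.3%), between 1 and 2 of them lower in each response. Its log2 fold changes were 0.73 and 0.77 for antigen without and under DEX (adjusted p = 0.0117 in both) and 0.88 and 0.92 for DEX without and with antigen (adjusted p = 0.00636 and 0.00484). The median log2 fold change of this list was 0.14 after antigen and -0.09 for DEX in activated cells, against -0.0007 and -0.01 over all genes.

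The effector machinery was read in 3 lists. Antigen changed 3 of 19 deadenylation genes, against 9.07% higher and 7.58% lower over all genes. It raised Btg3 (log2 1.79, adjusted p = 0.00126) and Btg1 (log2 1.74, adjusted p = 1.16e-05), which link RNA-binding proteins to CCR4-NOT, and lowered its catalytic subunit Cnot8 (log2 -0.50, adjusted p = 0.0315). DEX raised Tob1, another adaptor of CCR4-NOT, by 2.40 in resting cells (adjusted p = 1.79e-05) and by 1.86 in activated cells (adjusted p = 1.30e-04). Btg1 was raised by DEX at rest (log2 0.75, adjusted p = 0.00559) and lowered by it after antigen (log2 -0.69, adjusted p = 0.00931). Antigen under DEX raised Btg3 (log2 1.23, adjusted p = 0.0159) and lowered Cnot3 (log2 -0.70, adjusted p = 0.00794). With the replicate block, 9 and 7 of the 19 were called for antigen without and under DEX and 8 each for DEX without and with antigen (37.9%, 37.6%, 26.7% and 33.3% of all genes). Of 17 decapping genes, Dcp1b, a cofactor of the decapping enzyme, fell by 0.88 after antigen without and by 0.82 under DEX (adjusted p = 0.0146 and 0.0267), and Lsm5, a subunit of the ring that binds deadenylated mRNA, rose by 0.62 under DEX (adjusted p = 0.0288). Of 14 exosome genes, Dis3l fell by 0.51 and 0.69 on the log2 scale (adjusted p = 0.0417 and 0.0137) and Exosc3 rose by 0.69 in the latter comparison (adjusted p = 0.0285). Over all genes, antigen under DEX raised 7.19% and lowered 5.42%. By edgeR, DEX called no gene of either list without the replicate block. Over all genes it raised 5.40% and lowered 3.98% in resting cells, and 5.67% and 4.99% in activated cells. With the block, 2 and 4 decapping and 3 and 4 exosome genes were called for antigen without and under DEX (37.9% and 37.6% of all genes). For DEX in resting and activated cells, 1 and 2 decapping and 2 and 4 exosome genes were called (26.7% and 33.3%).

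Enzymes that act upstream of the decay factors made a list of 12. Antigen raised 6 of them, against 9.07% of all genes. Dusp1, the phosphatase that switches off p38, rose by 4.02 on the log2 scale (SE 0.21, adjusted p = 4.43e-07). Mapkapk3 and Mapkapk2, the kinases that phosphorylate Zfp36 downstream of p38, rose by 1.89 and 1.21 (adjusted p = 2.78e-05 and 6.52e-05). Under DEX, antigen raised 5 of the 12, against 7.19% of all genes, among them Mapkapk3, Mapkapk2 (log2 1.22 and 0.97) and Dusp1 (log2 1.1). DEX raised 3 of the 12 in resting cells and 2 in activated cells, against 5.40% and 5.67% of all genes. In resting cells it raised Dusp1 by 4.78 (adjusted p = 2.32e-07), the p38 gene Mapk14 by 0.96 (adjusted p = 5.39e-04) and Malt1, whose protein cleaves Regnase-1, by 0.56 (adjusted p = 0.0443). In activated cells DEX raised Dusp1 by 1.85 (adjusted p = 5.87e-05) and Mapk14 by 0.57 (adjusted p = 0.0133). With the replicate block, DEX raised 4 and lowered 2 of the 12 in resting cells (26.7% of all genes called in either direction). It raised 3 and lowered 3 of them in activated cells (33.3%).

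Known targets of these factors were read for comparison. Of 27 transcripts, 20 were tested. A target scarce at rest could pass the filter on low counts only through the groups where it was higher. The shares and medians of this list after antigen are therefore a description. In activated cells, DEX was compared with IgE DNP, where such targets were high. A fall with DEX there could be favoured by the same filter, so that share and median are a description too. The list includes Il13, Tnf, Csf2 and Ptgs2, which the study itself followed, so it is not independent evidence of a direction. Antigen raised 18 of the 20 without DEX (median log2 3.78, against 9.07% of all genes higher) and 15 of the 20 under DEX (median 2.05, against 7.19%). DEX lowered 10 of the 20 in activated cells (median -1.15, against 4.99% of all genes lower). With the replicate block it lowered 16 of the 20, against 33.3% of all genes called in either direction. The log2 fold changes of Csf2, Il13 and Ccl3 were -4.43, -4.36 and -3.81 (adjusted p = 0.00204, 4.40e-06 and 3.07e-05). The Csf2 value rests on few counts with both agents. In resting cells DEX lowered Il13 and Ccl2 and raised Ptgs2 and Lif (3.98% of all genes lower and 5.40% higher). With the block it lowered 6 and raised 3 of the 20 (26.7% of all genes in either direction). The fall of 10 targets stood beside a rise of Zfp36l2 and Zfp36 and a fall of Zc3h12c in the same samples. A link between them was not tested, and steady-state counts do not measure decay.

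**Figure D4:**
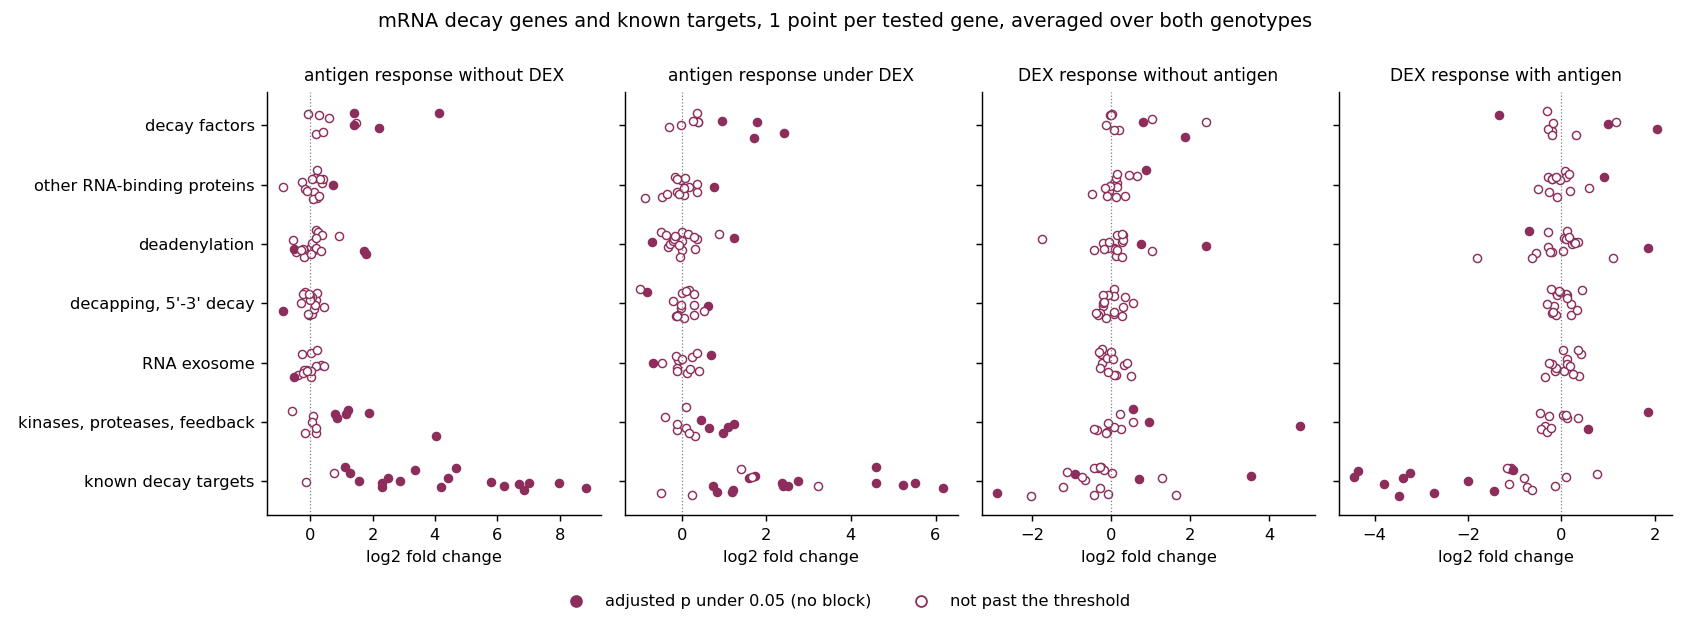
log2 fold changes of single genes, 1 point each, in 7 lists of mRNA decay genes and targets for the 4 responses, averaged over both genotypes (edgeR without the replicate block; filled points have an adjusted p under 0.05, and vertical scatter within a row has no meaning). Known targets spread far to the right after antigen, with 18 of 20 called, while decapping and exosome genes cluster around 0.

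The genes whose pattern was most like that of 2 members were read as a description, by Pearson's r of log2 CPM over the 16 samples, which share the 4 treatments. For Zfp36 they were Tmem198b (r = 0.961), B4galt1 (0.943), S1pr3 (0.932), Pwwp2b (0.931) and Gabarapl1 (0.929). For Zc3h12a they were Mcl1 (0.970), Ist1 (0.965), Gm11696 (0.964), Slc35e4 (0.963) and Sbds (0.961).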

How the data were processed

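RNA from 16 BMMC samples (2 genotypes, 4 treatments, 2 samples each) was sequenced by the authors as paired-end, stranded mRNA libraries. Per the labels, the authors used TopHat2 for alignment and HTSeq for counting, and deposited raw counts per Ensembl gene. A read with several alignments or overlapping several genes was in no gene's count. The strand setting is not given in the sources used here. Rows without a gene were left out of library sizes. They held 4.69 to 11% (no feature), 1.90 to 2.50% (ambiguous) and 21.5 to 37.8% (several alignments). Of 39179 identifiers, 37607 (95.99%) had a name in GENCODE M21 (GRCm38).

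Counts were scaled with TMM, filtered with filterByExpr (minimum count 10) and analysed by the quasi-likelihood method of edgeR (version 4.0.16, R 4.3.3) over all 16 samples, with 1 mean per group. Effects are averages over both genotypes unless stated. P-values were two-sided and adjusted by Benjamini-Hochberg over 13305 genes, with a threshold of 0.05. An interval is a 95% interval of the log2 fold change. Alternatives were DESeq2 1.42.0, DESeq2 size factors, other filters, only the groups compared, a log2 fold change of at least 1, each library left out and a replicate block. Numbers 1 to 8 were taken as replicate 1 and letters as replicate 2. Since same-set samples deviated together in 12 of 12 pairs, the numbers were taken to pair the samples. The block, which lowered the biological coefficient of variation from 0.312 to 0.133, was kept as the alternative. The fits were tested on simulated data for the antigen comparison, with 200 of 13305 genes changed by 1 on the log2 scale. With the set difference of the real data, 28.5% were recovered without the block and 83% with it, with 0 and 6 false calls. With no set difference, 70.5% and 69.5% were recovered, with 9 and 10 false calls. The simulated spread and set difference came from the fit with the block, so its gain was built in.

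Members and lists were chosen with earlier results of these data known. Named genes are all 10 members, at most 3 called genes in each direction per list and response, and the 5 genes most correlated with Zfp36 and with Zc3h12a. Genes called for genotype within a list are named in the closing section and were chosen after their values were seen. Of the genes listed, Exosc6 is not analysed here. 3′UTRs are those of principal GENCODE M21 transcripts, and levels per kb use all annotated exons. No amino acid sequences were used here.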

Additional observations from a re-analysis of the deposited data

Results flagged for a closer look

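Zc3h12c moved in opposite directions with DEX in resting and in activated cells, in every comparison within a set and genotype. The 4 differences were 0.68 to 1.81 on the log2 scale without antigen and -2.12 to -0.88 with it. The interaction was -2.3634 (edgeR, adjusted p = 0.0512), and with the replicate block -2.3595 (adjusted p = 1.45e-04). Without PEP+/+ IgE DNP DEX replicate 1 and with the block it was -2.16 (adjusted p = 7.61e-05).

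Zfp36 differed in the direction of its DEX response in resting cells between the genotypes. It was lower with DEX in both PEP+/+ sets (log2 -0.36 and -0.56) and higher in both PEP-/- sets (0.21 and 0.67), on 28 to 86 counts per library. The difference between genotypes was 0.9237 on the log2 scale (95% interval -0.26 to 2.11, adjusted p = 1.00 by edgeR with and without the block), so it did not pass the test.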

How the results depend on the processing

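Counts of called members differed between fits more than fold changes did. With the replicate block, the numbers of members called were 6 and 8 of 10 for antigen without and under DEX, 4 for DEX in resting (Zc3h12d, shaped by the filter, among them) and 4 in activated cells, 1 for the interaction (Zc3h12c) and 1 for genotype (Elavl1), against 4, 4, 2, 3, 0 and 0 without it. All genes called then numbered 5042, 5007, 3548, 4429, 209 and 2310, against 2216, 1678, 1247, 1418, 44 and 212. With the block and without PEP+/+ IgE DNP DEX replicate 1, an alternative chosen after seeing the data, 7, 7, 4, 3, 2 and 1 members were called, and 6123, 4975, 4684, 4567, 335 and 2845 genes. The interaction then included Zfp36 (log2 1.19, adjusted p = 0.0437). The interaction had 1 called member by DESeq2, without a filter and with at least 10 counts in every sample (43 genes called in the last). DEX in resting cells had 1 called member when only the groups compared were fitted (976 genes) or a log2 fold change of at least 1 was asked for (764 genes). Over all genes, DESeq2 called 97 for the interaction and 668 for genotype, no filter 107 and 472, and only the groups compared 953 and 805 for antigen under DEX and DEX with antigen. With a log2 fold change of at least 1, the counts of genes were 1165, 788, 764, 767 and 49 for the 4 responses and genotype. Leaving out each library in turn also moved the counts of called members for the 4 responses and the interaction. Such fits keep 1 sample in a group, and counts over all genes are not given for them, so those counts are not compared here.

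Of 913 log2 fold changes of members under an alternative, 838 kept direction and side of the threshold, 24 lost and 28 gained a call, and 23 turned direction, none of them called. The turned values were Rc3h2 for DEX in resting cells with only the groups compared (0.0229), Zfp36 in the same comparison with the block (0.0024) and Rc3h2 for antigen under DEX with the block and without PEP+/+ IgE DNP DEX replicate 1 (0.22). With 1 library left out they ranged from -0.26 to 0.28 (Zfp36), -0.11 to 0.17 (Zfp36l1) and -0.0654 to 0.0665 (Rc3h2) for DEX in resting cells, and from -0.31 to 0.21 (Rc3h2) and -0.30 to 0.66 (Zc3h12d) for antigen under DEX. The cause was not tested. Depth limits Zc3h12d, with at most 21 counts.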

Other observations

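Averaged over the 4 treatments, the RNA exosome, the complex that degrades mRNA from its 3′ end, was the list with the most genes lower in PEP-/- cells. Of 14 tested exosome genes 4 were lower and none higher, against 1.59% called in either direction over all genes, and the median log2 difference was -0.30 against 0.02. They were Exosc2 (log2 -0.92, edgeR, adjusted p = 0.0025), the catalytic subunit Dis3 (log2 -0.67, adjusted p = 0.0233), Exosc8 (log2 -0.50, adjusted p = 0.0368) and Exosc1 (log2 -0.45, adjusted p = 0.0482). With the replicate block, 8 of the 14 were lower and none higher, against 17.4% of all genes called in either direction. The treatments of a set and genotype deviated together, so the 16 libraries may not be independent in this comparison. Within each of the 4 treatments alone, only 1 of the 13305 genes was called for genotype (edgeR without the block).

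Single genes of 3 other lists were lower in PEP-/- cells as well. They were Lsm3 of the decapping list (log2 -0.48, adjusted p = 0.0443), Usp10 of the upstream enzymes (log2 -0.61, adjusted p = 0.0222), and Tnf and Tfrc of the known targets (log2 -1.08 and -0.89, adjusted p = 0.0123 and 0.0238). The limits given for the exosome genes hold for these genes too. Macrophage marker sums were higher in PEP-/- cells, and their part in these differences was not tested.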
